A study of Mus musculus with 4 samples.

Results

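The genes described here encode the axonemal dyneins, the motors that bend cilia and sperm flagella, together with the proteins that assemble and anchor them. They were taken by gene symbol, as the rows for dynein axonemal heavy chains, intermediate chains and light chains, the Dnaaf assembly factors and 10 further named genes (Lrrc6, Zmynd10, Pih1d3, Ccdc39, Ccdc40, Ccdc103, Ccdc114, Ccdc151, Armc4 and Ttc25). The rule found 34 genes among the 19445 with a value in any library. These are 15 heavy chains, 5 intermediate and light chains, 7 genes for docking of the arms or for the ruler that spaces them, and 7 assembly factors. Expression was measured in pachytene spermatocytes, male germ cells in the first meiotic prophase, from testes of adult C57BL/6 mice. Tcfl5+/+ cells (wild type, 2 libraries) were compared with Tcfl5+/- cells (heterozygote, 2 libraries). Tcfl5 encodes a germ cell transcription factor, and the comparison asks how the transcriptome differs when 1 copy of it is disrupted. Which part of the gene the disrupted copy lacks, and whether the libraries of a genotype came from separate animals, are not given in the sources used here, so the spread between libraries may be technical.

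Axonemal dyneins form outer and inner arms along the doublet microtubules. Heavy chains are the very large ATPase motors, intermediate and light chains build the base of the arm, a docking complex ties the outer arm to the doublet, and assembly factors fold and join the subunits in the cytoplasm with the Hsp90 chaperone machinery. Loss of many of these proteins in humans causes primary ciliary dyskinesia or immotile sperm. Male germ cells begin to transcribe many flagellar genes during meiosis, before a flagellum is built in spermatids.

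The libraries were of similar depth as far as the files show it. Total read counts are not in the files, so absolute depth is not given directly. Single-transcript genes of 900 to 1000 bases had a lowest step of 0.0562 to 0.0567 when FPKM was multiplied by transcript length in kilobases. That is what 1 read would be worth. FPKM divides by transcript length, so levels can be compared roughly between genes, within the limits of shared exons and near-identical copies given below. Tcfl5 was at 249 and 238 FPKM in the Tcfl5+/+ libraries against 137 and 189 in the Tcfl5+/- libraries, lower in both heterozygote libraries (limma-trend adjusted p = 0.242). The 20 pachytene spermatocyte markers had a mean level of 7.05 and 7.06 against 6.91 and 6.93 on the log2(FPKM + 1) scale. Of these 20, 9 were lower in both heterozygote libraries and 4 were higher in both. Tcfl5 itself is among the 9, as are Nme8, Tbpl1 and Mybl1, and these genes are counted again in lists given below. For this and the next marker counts, the shares over all tested genes were 19.0% lower and 23.6% higher. Early meiotic prophase markers were at 3.89 and 3.59 against 3.55 and 3.51, with 8 of 18 tested lower, 2 higher and a median log2 difference of -0.21. Their part in the differences described below was not tested. Spermatid markers (30 genes) were at 6.11 and 5.08 against 6.17 and 5.60, with 9 of 30 higher in both heterozygote libraries and 0 lower. The 9 include Prm1, at 248 and 114 against 523 and 412.5 FPKM, and Prm2, Tnp1 and Tnp2. These had log2 differences of 1.35 to 1.55 (limma-trend adjusted p from 0.228 to 0.275). The spermatid list as a whole had a median log2 difference of 0.13. Some of its genes had negative differences with overlap, among them Spaca1 at -0.44 and Acrv1 at -0.41. Sertoli cell markers (18 genes) were at 4.40 and 3.82 against 4.46 and 3.14, with 0 of 17 tested apart in either direction. Transcripts of other testis cells were thus present in every library. The mean levels of both lists were lower in replicate 2 of each genotype than in replicate 1, while some spermatid markers also differed between the genotypes. The part of these markers in the differences described below was not tested. Spermatogonial markers were at 1.35 to 1.87. In such bulk samples, fewer cells of a type and less RNA per cell cannot be told apart. Values below are given in the order wild-type replicates 1 and 2, then heterozygote replicates 1 and 2.

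A sequence motif recurred in the promoters of some of these genes, while most held no match. The RefSeq promoter table of GRCm38.p6 held a window of 300 bases, from 250 before to 50 after a transcript start, for 29 of the 34 genes. The X-box, an inverted repeat bound by RFX factors, which are regulators of cilium genes, was searched on both strands as GTTNC and GNAAC with 3 or 4 bases between them, a form chosen after the promoters of these genes had been read. A match lay in the window of 11 of the 29 genes (37.9%), against 608 of 26996 other genes (2.3%). The E-box CACGTG, the site of many basic helix-loop-helix factors, the protein family to which Tcfl5 belongs, lay in 3 of 29 (10.3%), those of Dnaic2, Ccdc103 and Ccdc151, against 2184 of 26996 (8.1%). The E-box share was close to that of other genes. The X-box shares are a description only, since the form was chosen on these same promoters, and 3 of the 11 matches belong to the near-identical Dnah7a, Dnah7b and Dnah7c.

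**Figure D1:**
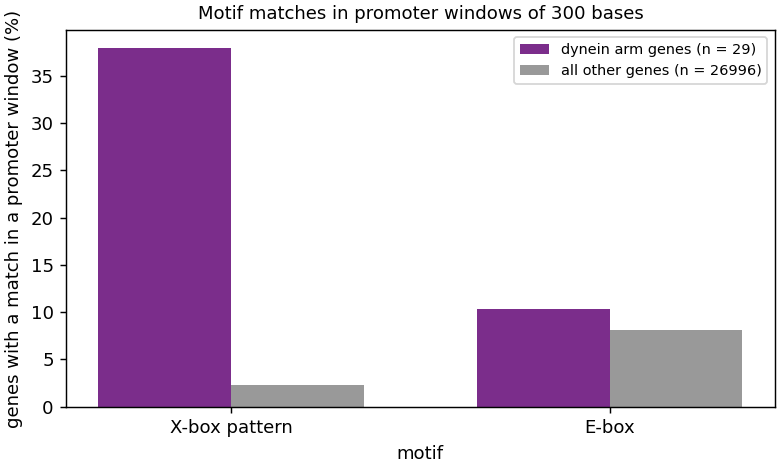
Share of genes, in percent, with at least 1 match to the X-box pattern or to the E-box in a promoter window of 300 bases, for the 29 dynein arm genes with a window (purple) and for 26996 other genes (grey). The X-box bar of the dynein arm genes stands at 37.9% and that of other genes at 2.3%, while the E-box bars are at 10.3% and 8.1%.

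Matches of 9 genes are printed with 8 bases on each side, 5′ to 3′ on the strand of the gene, with the X-box in capitals. They come from heavy chains, intermediate chains, docking genes and assembly factors. The letters fixed by the pattern recur in all of them because the search asked for these letters. The core was identical in Dnah7a, Dnah7b and Dnah7c, which are close copies of each other, and in Dnaic2 and Ccdc103, which are not.
Dnah7a chr1:53706821-53706849, minus strand: gccagtttGTTGCTTAGCAACgaatcgac
Dnah7b chr1:46066821-46066849, plus strand: gccagtttGTTGCTTAGCAACgaatcgac
Dnah7c chr1:46425441-46425469, plus strand: tccagtttGTTGCTTAGCAACgaatcgac
Dnaic1 chr4:41569767-41569795, plus strand: gcctgtcgGTTGCTGGGTAACcgcgtcag
Dnaic2 chr11:114727378-114727406, plus strand: cggccaggGTTGCTAGGCAACtggtaaac
Ccdc103 chr11:102881213-102881241, plus strand: gtggcgccGTTGCTAGGCAACaatctctg
Ccdc151 chr9:22002617-22002645, minus strand: gggaggaaGTTACTTAGCAACcgggagat
Dnaaf2 chr12:69198425-69198454, minus strand: tcccaggcGTTACTATGGCAACaaagcacg
Pih1d3 chr1:31222772-31222801, plus strand: acaaagttGTTACCCAGGCAACagagcaac
Ccdc151 held a second match, which is not shown. The tested genes with a match did not differ between the genotypes in 1 direction: both heterozygote libraries were below both wild-type libraries for 4 of 10, above for 1, and overlapping for 5, with a median log2 difference of -0.11, where 19.0% of all tested genes were below and 23.6% above. Without a match these numbers were 6, 1 and 9 of 16, with a median of -0.07.

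The whole windows of Dnaic2 and Dnah8 are shown because these genes were among the 3 with the smallest p in the comparison of the genotypes and differ in these motifs. In Dnaic2 the E-box and the X-box, in capitals, lie 83 and 33 bases before the start. The genes with an E-box did not go in 1 direction. Dnaic2 was lower in both heterozygote libraries, Ccdc103 higher in both and Ccdc151 overlapping. A link of either motif to the difference between the genotypes was not tested. The window of Dnah8 holds neither, and the start it uses is the one in the deposited files. The window of Dnaic2 lies downstream of the deposited start of that gene, 114722209. Dnah14 is the other of the 3 with the smallest p. Its window, not printed, also holds neither motif and uses a different start.
Dnaic2 promoter chr11:114727169-114727468, plus strand: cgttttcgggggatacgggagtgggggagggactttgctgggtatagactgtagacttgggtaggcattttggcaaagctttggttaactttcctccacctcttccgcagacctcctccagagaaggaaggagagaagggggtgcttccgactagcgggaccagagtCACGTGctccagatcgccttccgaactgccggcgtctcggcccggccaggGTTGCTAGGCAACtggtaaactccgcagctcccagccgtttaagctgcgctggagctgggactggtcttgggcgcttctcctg
Dnah8 promoter chr17:30626686-30626985, plus strand: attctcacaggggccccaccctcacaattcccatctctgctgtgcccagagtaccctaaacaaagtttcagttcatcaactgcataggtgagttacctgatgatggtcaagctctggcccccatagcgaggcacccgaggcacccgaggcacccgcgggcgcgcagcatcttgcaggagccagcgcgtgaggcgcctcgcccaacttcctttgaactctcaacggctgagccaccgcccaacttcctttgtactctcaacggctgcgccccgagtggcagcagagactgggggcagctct

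Among the heavy chains, taken gene by gene, those of the sperm outer arm were the most abundant. Dnah8 (chromosome 17, 30626936 to 30875762, plus strand on GRCm38), an outer arm heavy chain of sperm, was at 177 and 212 FPKM in the Tcfl5+/+ libraries against 135 and 149.8 in the Tcfl5+/- libraries. Dnah17 (chromosome 11, 118021723 to 118130961, minus strand), its partner in the sperm outer arm, was at 68.5 and 77.4 FPKM in the Tcfl5+/+ libraries against 56.1 and 66.3 in the Tcfl5+/- libraries. For both genes the genotypes did not overlap, with the heterozygote lower. Together they made up 52.1% and 52.4% of the summed FPKM of the 15 heavy chains in the Tcfl5+/+ libraries against 48.7% and 49.3%. Their ratio, Dnah8 to Dnah17, was 2.59 and 2.74 against 2.40 and 2.26.

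The outer arm heavy chains known from airway cilia were very low. Dnah5 was at 0.12 and 0.09 FPKM in the Tcfl5+/+ libraries against 0.06 and 0.08 in the Tcfl5+/- libraries, Dnah9 at 0.26 and 0.16 against 0.29 and 0.15 FPKM and Dnah11 at 0.24 and 0.07 against 0.30 and 0.14 FPKM. The 3 genes summed to 0.32 to 0.65 FPKM in a library, against 190.9 to 289 FPKM for Dnah8 and Dnah17. By the step of a single read and the longest transcript, the lowest of these values rest on about 17 reads for Dnah5 and Dnah11 and 40 for Dnah9, so they were detected but stood below the filter of 0.5 FPKM and were not tested. Dnah11 shares 642 exonic bases with Cdca7l on the opposite strand in GENCODE, at 11.4 to 15.3 FPKM here, and reads of the pair cannot be told apart without strand. Of the 15 markers of multiciliated epithelium in the files, 9 were below 0.5 FPKM on average: these 3 heavy chains and Sntn, Sec14l3, Cdhr3, Ccdc153, Mcidas and Krt18. The other 6 were Dnaic1, given below, Fam183b at 10.9 to 25.6 FPKM, Epcam at 12.2 to 15.8, Krt8 at 7.78 to 9.99, Ccno at 1.24 to 2.19, and Foxj1. Foxj1, a regulator of motile cilia, was at 15.7 and 7.46 FPKM in the Tcfl5+/+ libraries against 14.3 and 5.67 in the Tcfl5+/- libraries.

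The 2-headed inner arm f is built on Dnah2 and Dnah10. Dnah2 was at 31.1 and 41.3 FPKM in the Tcfl5+/+ libraries against 28.9 and 32.1 in the Tcfl5+/- libraries, with the heterozygote replicate 2 above wild-type replicate 1. Dnah10 was at 10.2 and 11.9 FPKM in the Tcfl5+/+ libraries against 9.24 and 9.01 in the Tcfl5+/- libraries, with no overlap. Dnah2 stood 3.06 to 3.57 times above Dnah10 in each library, and this ratio overlapped between the genotypes.

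The 8 heavy chains of single-headed inner arms spanned more than a 10-fold range of levels. Dnah7c, Dnah7b and Dnah7a, near-identical neighbours or relatives on chromosome 1 between which reads of 50 bases can be split in an uncertain way, were at 36.7 and 42.5 against 36.8 and 43.2 FPKM, at 31.9 and 35.6 against 29.1 and 32.3 FPKM and at 16.9 and 18.1 against 14.5 and 16.5 FPKM. Summed over the 3 copies, the values were 85.4 and 96.3 against 80.4 and 92.0 FPKM and overlapped. Dnah1, whose loss in men gives short or absent sperm flagella, was at 26.4 and 30.7 FPKM in the Tcfl5+/+ libraries against 26.1 and 30.7 in the Tcfl5+/- libraries and overlapped. Dnah14 (chromosome 1, 181589974 to 181814741, plus strand), a less studied member, was at 28.9 and 33.2 FPKM in the Tcfl5+/+ libraries against 20.3 and 21.1 in the Tcfl5+/- libraries. Dnah12 (chromosome 14, 26691548 to 26892284, plus strand) was at 24.3 and 28.7 FPKM in the Tcfl5+/+ libraries against 18.9 and 20.7 in the Tcfl5+/- libraries. Both genes were lower in the 2 heterozygote libraries. The gap between the genotypes was wider than the differences between replicates for Dnah14 and narrower than that of the wild-type replicates for Dnah12. Dnah6 was at 15.2 and 18.4 FPKM in the Tcfl5+/+ libraries against 14.1 and 14.9 in the Tcfl5+/- libraries, also without overlap. Dnah3 was the lowest of the 8, at 3.97 and 2.18 FPKM in the Tcfl5+/+ libraries against 2.40 and 1.27 in the Tcfl5+/- libraries. It was lower in replicate 2 of each genotype, it overlapped, and 1506 of its exonic bases lie opposite those of Lyrm1, which was at 40.2 to 46.9 FPKM.

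Apart from the airway genes, the order of heavy chain levels, by the mean over the libraries, was Dnah8, Dnah17, Dnah7c, Dnah2, Dnah7b, Dnah1, Dnah14, Dnah12, Dnah7a, Dnah6, Dnah10 and Dnah3. Dnah8 was above Dnah17 in every library, and Dnah17 above each of the others taken singly. The sum of Dnah7a, Dnah7b and Dnah7c, between which reads are split in an uncertain way, was above Dnah17 in every library. From Dnah7c to Dnah12 neighbours in that order overlapped in their ranges over the 4 libraries, as did Dnah7a and Dnah6. Dnah7a, Dnah10 and Dnah3 each had a range below that of the gene before it.

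**Figure D2:**
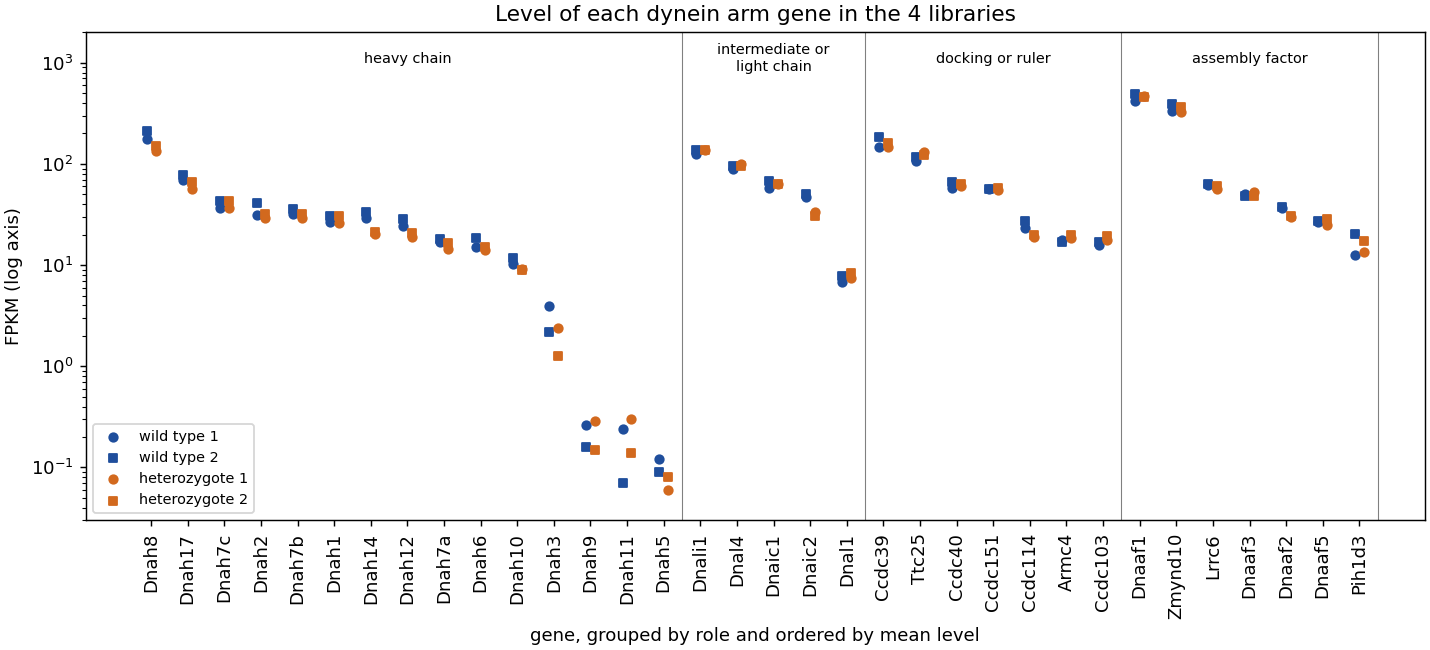
FPKM of the 34 genes on a log axis, 1 point per library (blue, wild type; orange, heterozygote; circles, replicate 1; squares, replicate 2), grouped by role and ordered by mean level. Dnaaf1 and Zmynd10 stand at the top, at 329 to 486 FPKM, Dnah8 leads the heavy chains, and Dnah9, Dnah11 and Dnah5 lie below 0.5 FPKM.

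The intermediate chains Dnaic1 and Dnaic2, which pair at the base of the outer arm, differed from each other in the comparison of the genotypes. Dnaic1 was at 58.0 and 68.2 FPKM in the Tcfl5+/+ libraries against 63.2 and 63.3 in the Tcfl5+/- libraries, with overlap. Dnaic2 (chromosome 11, 114722209 to 114757889, plus strand) was at 46.7 and 50.1 FPKM in the Tcfl5+/+ libraries against 33.2 and 30.2 in the Tcfl5+/- libraries, with a wide gap and the smallest p of all 31 genes tested. The ratio of Dnaic1 to Dnaic2 within a library was 1.24 and 1.36 against 1.91 and 2.10. The light chains were more even. Dnal4, a light chain related to those of cytoplasmic dynein, was at 89.1 and 94.2 FPKM in the Tcfl5+/+ libraries against 99.5 and 96.3 in the Tcfl5+/- libraries, higher in both heterozygote libraries by a small margin. Dnali1, the counterpart of an inner arm light chain of Chlamydomonas, was at 124 and 138 FPKM in the Tcfl5+/+ libraries against 138 and 138 in the Tcfl5+/- libraries. Dnal1, which binds the outer arm motor, was the lowest of the chains outside the heavy group, at 6.73 and 7.82 FPKM in the Tcfl5+/+ libraries against 7.48 and 8.41 in the Tcfl5+/- libraries. Both of these overlapped. In GENCODE, 384 exonic bases of Dnal1 lie opposite Pnma1, at 28.5 to 35.8 FPKM.

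The outer arm docking genes differed in direction. Ccdc114 (chromosome 7, 45923164 to 45948963, plus strand), a coiled-coil subunit of the docking complex, was at 23.2 and 27.0 FPKM in the Tcfl5+/+ libraries against 19.1 and 19.9 in the Tcfl5+/- libraries, lower in both heterozygote libraries. Its partner Ccdc151 was at 56.0 and 57.0 FPKM in the Tcfl5+/+ libraries against 55.2 and 58.0 in the Tcfl5+/- libraries, with overlap. Ttc25, a further docking subunit, was at 107 and 116 FPKM in the Tcfl5+/+ libraries against 130.5 and 122 in the Tcfl5+/- libraries, and Armc4 at 17.6 and 16.8 FPKM in the Tcfl5+/+ libraries against 18.6 and 19.7 in the Tcfl5+/- libraries, both higher in the heterozygote libraries. Within a library, Ttc25 stood 4.60 and 4.29 times above Ccdc114 in wild-type and 6.85 and 6.12 times above it in heterozygote cells. The ratio of Ccdc151 to Ccdc114 was 2.42 and 2.11 against 2.90 and 2.92. Ccdc103, needed for the attachment of arms, was at 15.8 and 16.8 FPKM in the Tcfl5+/+ libraries against 17.6 and 19.6 in the Tcfl5+/- libraries, higher in the heterozygote without overlap. The ruler genes Ccdc39 and Ccdc40, which set the spacing of the arms, were at 145 and 185 against 148 and 160.2 FPKM and at 57.3 and 65.6 against 59.9 and 62.6 FPKM, and their ratio of 2.48 to 2.82 overlapped between the genotypes.

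**Figure D3:**
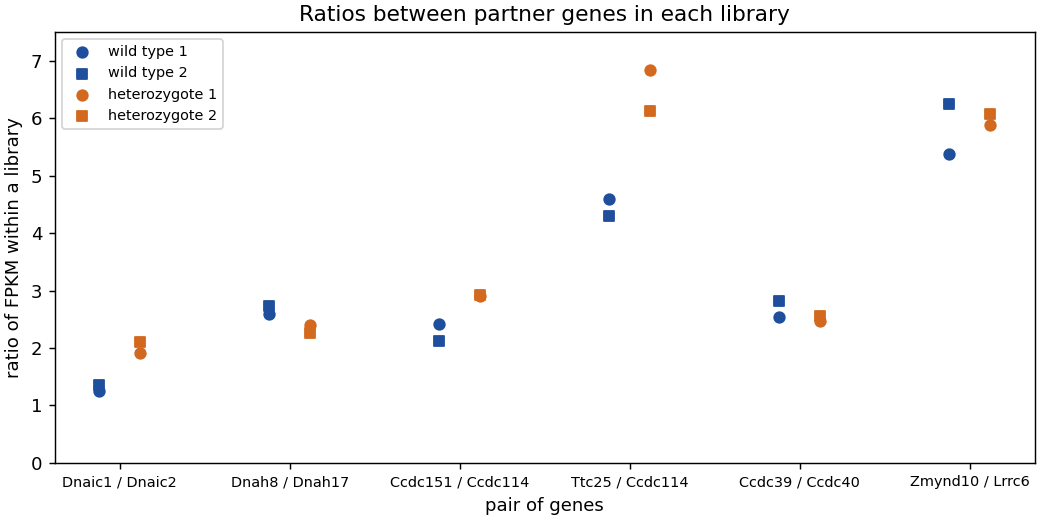
Ratio of FPKM between partner genes within each library, for 6 pairs (blue, wild type; orange, heterozygote; circles, replicate 1; squares, replicate 2). The genotypes are apart for Dnaic1 over Dnaic2 (1.24 and 1.36 against 1.91 and 2.10), Ttc25 over Ccdc114 and Ccdc151 over Ccdc114, lie closer for Dnah8 over Dnah17, and overlap for Ccdc39 over Ccdc40 and Zmynd10 over Lrrc6.

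Assembly factors held the most abundant transcripts of the whole group. Dnaaf1, a leucine-rich repeat protein of dynein preassembly, was at 421 and 486 FPKM in the Tcfl5+/+ libraries against 468 and 462 in the Tcfl5+/- libraries. Zmynd10, which acts with Lrrc6 and chaperones, was at 335 and 395 FPKM in the Tcfl5+/+ libraries against 329 and 368 in the Tcfl5+/- libraries. Both overlapped between the genotypes and each stood above every dynein chain. Lrrc6 was at 62.4 and 63.1 FPKM in the Tcfl5+/+ libraries against 56.0 and 60.6 in the Tcfl5+/- libraries, lower in the heterozygote without overlap but by a small margin. Dnaaf2 (chromosome 12, 69189087 to 69198429, minus strand), a PIH-domain co-chaperone, was at 36.8 and 37.6 FPKM in the Tcfl5+/+ libraries against 29.7 and 30.8 in the Tcfl5+/- libraries, with a gap several times the difference between replicates. In GENCODE, 32.7% of its exonic bases lie opposite the non-coding gene 9330151L19Rik and part of them in the same-strand readthrough models Gm49383 and Gm49384. Dnaaf3 was at 50.2 and 47.7 FPKM in the Tcfl5+/+ libraries against 53.1 and 48.2 in the Tcfl5+/- libraries and Dnaaf5, a HEAT-repeat protein, at 26.7 and 27.2 FPKM in the Tcfl5+/+ libraries against 25.0 and 28.2 in the Tcfl5+/- libraries, both overlapping. Pih1d3, a PIH-domain factor whose mouse gene and transcript both span 1449 bases in the files, was at 12.7 and 20.5 FPKM in the Tcfl5+/+ libraries against 13.3 and 17.4 in the Tcfl5+/- libraries, and the replicates differed more than the genotypes. Genes on the opposite strand also share 20.7% of the exonic bases of Dnaaf1 (Taf1c), 16.9% of Ccdc39 (Ttc14), 12.6% of Dnaaf3, 10.6% of Dnaaf5 and 10.1% of Zmynd10, and reads of such pairs cannot be told apart here.

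None of the 31 tested genes passed the comparison of the genotypes. The limma-trend test of genotype on log2(FPKM + 1) called 0 of 31 after Benjamini-Hochberg adjustment over 13333 genes, and 0.0% of all genes. P-values here weigh the genotype difference against the spread between libraries of a genotype, moderated over all genes. At an unadjusted p under 0.05, 6 of the 31 were lower in the heterozygote (5.57% of all genes) and 0 higher (7.63% of all genes). The 6 were Dnaic2, at 48.4 ± 2.45 FPKM against 31.7 ± 2.09 (SD, n = 2 each) (log2 difference -0.60, standard error 0.10, limma-trend adjusted p = 0.153), Dnah14, at 31.1 ± 3.03 FPKM against 20.7 ± 0.58 (SD, n = 2 each) (log2 difference -0.56, standard error 0.12, limma-trend adjusted p = 0.182), Dnah8, at 195 ± 24.2 FPKM against 142 ± 10.6 (SD, n = 2 each) (log2 difference -0.45, standard error 0.11, limma-trend adjusted p = 0.225), and Dnaaf2, Dnah12 and Ccdc114. Dnaaf2 had 37.2 ± 0.559 FPKM against 30.3 ± 0.757 (SD, n = 2 each) and log2 difference -0.29, standard error 0.09, limma-trend adjusted p = 0.284. Dnah12 had 26.5 ± 3.08 FPKM against 19.8 ± 1.27 (SD, n = 2 each) and log2 difference -0.40, standard error 0.13, limma-trend adjusted p = 0.302. Ccdc114 had 25.1 ± 2.69 FPKM against 19.5 ± 0.573 (SD, n = 2 each) and log2 difference -0.35, standard error 0.12, limma-trend adjusted p = 0.337. Mean FPKM was lower in the heterozygote by 34.6% for Dnaic2, 33.3% for Dnah14, 26.9% for Dnah8, 18.6% for Dnaaf2, 25.2% for Dnah12 and 22.4% for Ccdc114. Without wild-type replicate 2, and likewise without heterozygote replicate 1, 3 of the 31 had an unadjusted p under 0.05. That number was 2 with median-ratio scaling, 3 with upper-quartile scaling and 2 with the length trend removed. The share of all genes at that p was not computed for these alternatives, so these numbers cannot be set against it. Several other genes were apart without reaching that level: the log2 difference and its standard error were -0.25 and 0.12 for Dnah17, -0.24 and 0.16 for Dnah10, -0.20 and 0.15 for Dnah6, -0.17 and 0.13 for Dnah7a and -0.11 and 0.08 for Lrrc6, and 0.18 and 0.08 for Ttc25, 0.18 and 0.13 for Ccdc103 and 0.15 and 0.12 for Armc4. The limma-trend adjusted p of these 8 ran from 0.470 to 0.722.

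Counted by overlap, 11 of the 31 genes had both heterozygote libraries below both wild-type libraries, where 19.0% of all tested genes did, and 4 (Ttc25, Dnal4, Armc4 and Ccdc103) had both above, where 23.6% did. The 11 were 7 of the 12 tested heavy chains, 1 of the 5 intermediate and light chains, 1 of the 7 docking and ruler genes and 2 of the 7 assembly factors. With 1 library left out, fewer pairs must differ and the counts depend on which: 20 were lower without wild-type replicate 1 (25.5% of all genes) and 17 without heterozygote replicate 2 (26.9%), but 12 without wild-type replicate 2 (44.5%) and 12 without heterozygote replicate 1 (42.4%), where the members' share was not above that of all genes. The members that were higher numbered 12 (31.4% of all genes) and 8 (33.3%) in these last cases, and 5 (41.6%) and 6 (38.7%) in the first ones. The median log2 difference was -0.24 for heavy chains, 0.08 for intermediate and light chains, 0.003 for docking and ruler genes and -0.06 for assembly factors, beside -0.02 for all tested genes. It was negative for 11 of the 12 heavy chains, Dnah7c being the exception, and for 1 of 5, 3 of 7 and 5 of 7 genes in the other groups, 20 of 31 in all. That number was 19 to 25 over the other scalings and the length correction. Leaving out wild-type replicate 1 gave 24 and wild-type replicate 2 gave 15, while leaving out heterozygote replicate 1 gave 16 and heterozygote replicate 2 gave 22. Over the libraries left out in turn, the heavy chain median ran from -0.33 without wild-type replicate 1 to -0.16 without heterozygote replicate 1 and -0.13 without wild-type replicate 2.

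**Figure D4:**
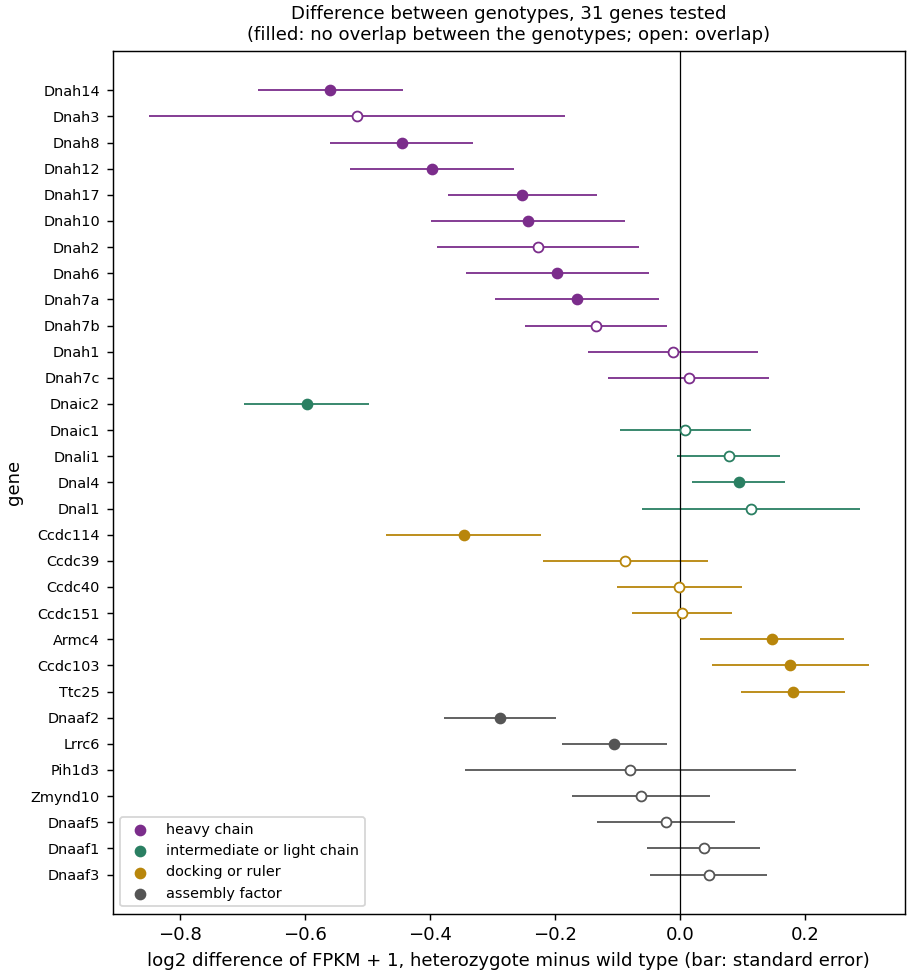
Log2 difference of FPKM + 1, heterozygote minus wild type, for the 31 tested genes, grouped by colour into heavy chains, intermediate and light chains, docking or ruler genes and assembly factors, with bars for the standard error. Filled points mark genes whose genotypes do not overlap. Of the 12 heavy chains 11 lie left of 0, and Dnaic2, at -0.60, is the lowest of all.

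Replicates of a genotype also differed. Wild-type replicate 2 was above wild-type replicate 1 for 28 of the 31 genes, with a median log2 difference of 0.19, and heterozygote replicate 2 above heterozygote replicate 1 for 23 of 31, with a median of 0.08. Over all 13333 tested genes the corresponding medians were -0.10 and -0.06. The mean levels of spermatid and Sertoli cell markers were lower in replicate 2 of both genotypes, as given above. The part of these markers in the differences between replicates was not tested. The summed level of the 15 heavy chains was 472 and 552 against 392 and 438 FPKM, without overlap, and the wild-type replicates were farther apart than the nearest libraries of the 2 genotypes.

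Transcript length moved with the genotype difference over all genes. The heavy chains have transcripts of 12287 to 15616 bases, the longest of the group. Among other tested genes with a longest transcript of at least 12000 bases (n = 175), the median log2 difference was -0.07 and 23.4% had both heterozygote libraries below both wild-type libraries, while among those under 1000 bases (n = 1119) the median was 0.07 and the share 9.4%. The heavy chain median of -0.24, with 7 of 12 below, lay beyond that of other long transcripts. Those other genes were not matched to the heavy chains by level, and the 12 include the near-identical Dnah7a, Dnah7b and Dnah7c. The part of length in the heavy chain difference was not tested. With a smooth length trend removed from each library, an alternative chosen after the data were seen, the heavy chain median was -0.16, and 6 of the 31 genes were lower (17.8% of all genes) and 2 higher (20.1%) without overlap. The share of members that were lower was then near that of all genes.

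**Figure D5:**
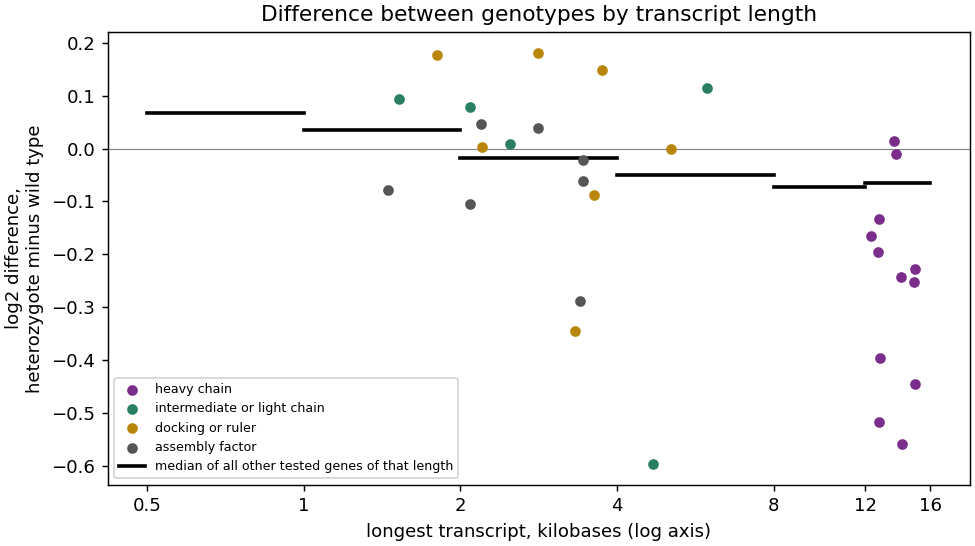
Log2 difference, heterozygote minus wild type, against the longest transcript in kilobases (log axis; transcripts under 1 kilobase are drawn from 0.5 on the axis), for the 31 tested genes coloured by role. Black lines give the median of all other tested genes in 6 ranges of length, from 0.07 in the shortest to -0.07 in the longest, and 10 of the 12 heavy chains lie below every line.

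Other genes of the dynein arms that the symbol rule does not take went both ways. Of 28 tested, both heterozygote libraries were below the wild type for 4 (19.0% of all genes) and above it for 4 (23.6%), with a median log2 difference of 0.02 and 0 passing the adjusted test. The one that stood apart was Nme8, a thioredoxin-domain relative of outer arm intermediate chains, at 69.6 and 74.8 FPKM in the Tcfl5+/+ libraries against 31.4 and 24.1 in the Tcfl5+/- libraries (log2 difference -1.36, standard error 0.15, limma-trend adjusted p = 0.116). Pih1d1, a PIH-domain subunit of an Hsp90 co-chaperone complex, was at 161 and 154 FPKM in the Tcfl5+/+ libraries against 203 and 187 in the Tcfl5+/- libraries, and 1110004E09Rik, a gene of dynein arm assembly, at 258 and 279 FPKM in the Tcfl5+/+ libraries against 326 and 296 in the Tcfl5+/- libraries. Genes of the dynein regulatory complex, radial spokes and central pair had 8 of 33 lower, 8 higher and a median of -0.006. Within that list Gas8, a regulatory complex subunit, was at 53.4 and 50.3 against 73.5 and 64.6 FPKM, the spoke gene Rsph9 at 94.3 and 105 against 129.5 and 125 FPKM and Tcte1, of the regulatory complex, at 106 and 119 against 93.4 and 85.3 FPKM. Cytoplasmic dynein, its dynactin partners and the intraflagellar dynein had 5 of 20 lower, 8 higher and a median of 0.01, with Dctn5 at 39.2 and 41.8 against 48.5 and 49.7 FPKM, Nde1 at 6.71 and 5.55 against 4.24 and 2.68 FPKM and Dctn6 at 62.8 and 62.7 against 55.4 and 53.1 FPKM. In each of these 3 lists, 0 genes passed limma-trend after adjustment.

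Regulators of motile cilium genes were measured as a last list, of which 10 of 14 were tested. Without overlap 4 were lower (19.0% of all genes) and 1 higher (23.6%). The 4 lower genes include Tcfl5 itself, the gene disrupted in the heterozygote. Tbpl1, a TBP-related factor, was at 165 and 184 FPKM in the Tcfl5+/+ libraries against 129 and 116 in the Tcfl5+/- libraries, and Mybl1, the meiotic activator A-Myb, at 29.7 and 33.1 against 25.9 and 28.2 FPKM. Rfx2, the X-box factor needed for mouse spermatid development, was at 139 and 154 FPKM in the Tcfl5+/+ libraries against 135 and 144 in the Tcfl5+/- libraries, and Rfx4 at 37.0 and 41.8 against 39.4 and 41.3 FPKM, both overlapping between the genotypes. Rfx1 and Rfx3, at 4.12 to 10.8 and at 1.11 to 1.93 FPKM, overlapped too. The 4 Rfx genes were chosen for naming after the promoter matches were seen. Gmnc, Mcidas, Myb and Trp73 were below 0.5 FPKM on average.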

How the data were processed

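Polyadenylated RNA of 4 libraries was sequenced on a BGISEQ-500 with single-end reads of 50 bases, per the labels' protocols, which name no strand-keeping step. The authors deposited FPKM per gene with 2 decimals, per the file headers. HISAT2 2.0.4, Bowtie2 2.2.5 and RSEM 1.2.12 with GRCm38 are named in the submitters' processing notes, without their roles.

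Tables were joined by gene identifier, a gene absent from a library was set to 0 (1085 to 1491 genes a library), 1593 genes without any value and 1 row without a gene per file were left out, and symbols turned into dates were restored. The planned test for FPKM was used: limma-trend (limma 3.58.1, R 4.3.3) on log2(FPKM + 1), which understates changes of low genes, for the 13333 genes averaging 0.5 FPKM or more, two-sided, genotype as the only term, Benjamini-Hochberg adjusted over all genes at 0.05. It was tested on simulated data. Genes with at least 1 FPKM on average are named with their values, differences are given for up to 14 genes without overlap, and the 3 of smallest p are named from each pathway list. The genes and lists were chosen with earlier results of these data known. Exon overlaps come from GENCODE M21 and promoters from RefSeq, both on GRCm38. Protein sequences were not used here, and 3 promoter matches are not reported here. Alternatives were the pseudocount, filters, scalings, a replicate block, robust moderation, a length correction and each library left out.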

Additional observations from a re-analysis of the deposited data

How the results depend on the processing

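The log2 differences of the 14 named genes kept their sign in all 196 values under the 14 alternatives, and 193 stayed on the same side of the threshold. Most of this agreement in sign was fixed in advance. The 14 were chosen for not overlapping, so leaving out a library or changing the pseudocount could not reverse them. The filters, robust moderation and the replicate block leave the difference itself unchanged. Only the scalings and the length correction could have changed a sign. The remaining 3 came with the replicate number as a block. Nothing in the labels says that the numbers pair the libraries; deviations from the genotype means correlated between same-numbered libraries at 0.529. With the replicate block, limma-trend called 1213 of 13333 genes (9.10%) and 3 of the 31 members, Dnaic2 (adjusted p = 0.00404), Dnah8 (adjusted p = 0.00533) and Dnah14 (adjusted p = 0.01).

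The number of genes called was 0 with all other settings but 65 with median-ratio scaling, 119 with quantile normalization and 63 with the length trend removed, none of them members. Members with an unadjusted p under 0.05 numbered 2 with median-ratio scaling, 3 with upper-quartile scaling, 2 with the length trend removed and 3 to 6 without 1 library. The shares of all genes at that p were not computed for these alternatives. Members higher without overlap numbered 2 with an equal sum (18.6% of all genes), 1 with median ratios (19.9%) and 2 with the upper quartile (20.6%). They numbered 2 with quantiles (21.4%), 2 with the length trend removed (20.1%) and 5 to 12 without 1 library (31.4% to 41.6%). Those lower numbered 7 with the upper quartile (20% of all genes), 6 with the length trend removed (17.8%) and 12 to 20 without 1 library (25.5% to 44.5%), so under the first 2 of these the members' share was near that of all genes. Without 1 library the median log2 difference ran from 0.001 to 0.134 for intermediate and light chains, from -0.032 to 0.096 for docking and ruler genes and from -0.142 to 0.017 for assembly factors, so the sign of the last 2 depends on the library. The heavy chain median was negative under every alternative, from -0.333 to -0.127. For values under 0.5 FPKM (Dnah5, Dnah9, Dnah11), few reads limit any comparison. The causes of these changes were not tested.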
